A study of Mus musculus with 6 samples.

Results

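A set of 9 genes that set cochlear hair cells apart were followed across 6 one-colour Agilent arrays of mouse cochlear RNA, 1 array for each of 6 groups. They were chosen by name, as every non-control probe whose gene name was Slc26a5, Ocm, Chrna9, Chrna10, Otof, Slc17a8, Atoh1, Pou4f3 or Gfi1, which gave 9 of 37316 genes and 15 of 56589 probes. All groups were female C57BL/6 mice aged 6 weeks. Mice of the groups Dex12h and Dex24h were exposed to intense noise for 2 h, received dexamethasone, a synthetic glucocorticoid, at 10 mg/kg by intraperitoneal injection directly afterwards, and were sampled at 12 or 24 h. The groups Control12h and Control24h had the same noise, a saline injection in place of the drug and the same sampling times. Noise had the exposure without an injection, at a time the labels do not give, and Baseline had neither noise nor drug. Each group held 6 mice per the labels, and the sources do not say whether RNA of several mice was combined for an array. The tissue was the whole dissected cochlea, so that fewer hair cells and less RNA per hair cell cannot be told apart.

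Hair cells are the sound receptors of the organ of Corti. Outer hair cells amplify vibration through the membrane motor prestin (Slc26a5), hold the calcium buffer oncomodulin (Ocm), and are inhibited by brainstem fibres through a nicotinic acetylcholine receptor built from Chrna9 and Chrna10. Inner hair cells pass sound on to the auditory nerve: the vesicular transporter VGLUT3 (Slc17a8) fills their vesicles with glutamate, and otoferlin (Otof) couples calcium entry to vesicle release. The transcription factors Atoh1, Pou4f3 and Gfi1 specify hair cells during development, and Pou4f3 and Gfi1 also keep them alive.

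The signal of a gene is that of short DNA probes, and the probe sequences are shown because several results below differ between probes of the same gene. The 7 probes below follow the deposited files, 5′ to 3′, in lower case throughout because no stretch is singled out, with positions on mouse build mm9. Each is called by its position on its transcript, and whether it lies in coding sequence is not given, since no mm9 annotation was used here. Both prestin probes span exon junctions, since their 60 bases cover a longer stretch of the genome, and neither was detected; they lie on the minus strand at chr5:21322806-21325538 and chr5:21317101-21319143.
Slc26a5, transcript base 1709: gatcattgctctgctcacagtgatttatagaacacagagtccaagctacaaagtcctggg
Slc26a5, transcript base 2274: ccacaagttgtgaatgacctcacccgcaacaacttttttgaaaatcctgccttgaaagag
The dimmer Ocm probe (chr5:144785309-144785368, minus strand) repeats the pattern of the brighter one, and the Otof probe (chr5:30682501-30682560, minus strand) gives larger differences than the brightest Otof probe in Noise and Control24h against Baseline.
Ocm, transcript base 258: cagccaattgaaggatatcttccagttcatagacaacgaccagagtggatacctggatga
Otof, transcript base 3910: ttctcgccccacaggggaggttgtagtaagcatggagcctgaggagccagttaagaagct
The Chrna9 probe (chr5:66368222-66368281, plus strand) is assigned to the RefSeq mRNA and departs from the brighter probe to a predicted variant RNA, and the Gfi1 probe (chr5:108152798-108152857, minus strand) was not detected while a probe nearer the 3′ end was bright.
Chrna9, transcript base 1499: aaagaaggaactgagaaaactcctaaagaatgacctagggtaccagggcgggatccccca
Gfi1, transcript base 506: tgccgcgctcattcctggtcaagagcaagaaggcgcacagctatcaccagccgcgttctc
Slc17a8 had 1 probe (chr10:89046159-89046218, minus strand), which gave the lower signals after noise described below.
Slc17a8, transcript base 1608: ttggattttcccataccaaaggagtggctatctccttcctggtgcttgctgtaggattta

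Levels are given as scaled signal, the processed signal of the scanner software brought to a common 75th percentile, and serve only to compare arrays for 1 probe. A probe counted as measured in a comparison when the software marked it well above background on both arrays. The share of probes well above background lay between 63.0% in Control24h and 70.3% in Control12h. With 1 array per group no difference between 2 arrays has a replicate check or a test. All comparisons against Baseline share the same Baseline array. Like differences of Noise, Control12h and Control24h from it are therefore not independent of each other. The intervals in brackets cover 1.96 spot errors of the software, which are dominated by a preset multiplicative error of 10%. Both 12 h arrays shared a slide and the other 4 arrays shared another, so in Control12h against Baseline slide and group cannot be told apart.

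**Figure D1:**
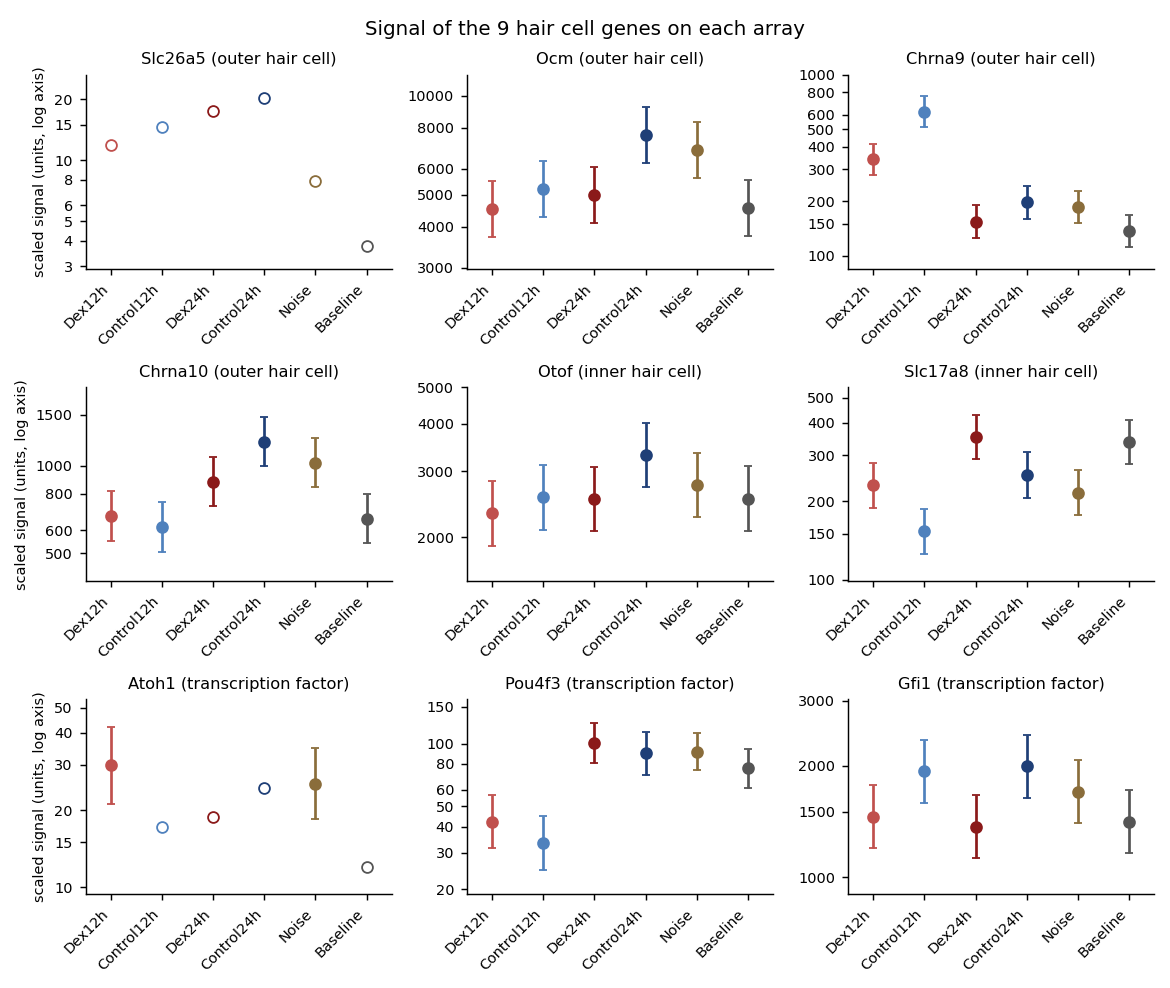
Scaled signal (log axis) of the brightest probe of each of the 9 genes on the 6 arrays, in the order Dex12h, Control12h, Dex24h, Control24h, Noise, Baseline; filled points are well above background, with bars of 1.96 spot errors, and open points are not. Ocm, Chrna10 and Otof are highest in Control24h, Slc17a8 is lowest in Control12h, and Slc26a5 has no filled point.

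Prestin was not well above background on any of the 6 arrays with either probe. The brighter probe gave 11.9 units in Dex12h, 14.6 in Control12h, 17.4 in Dex24h, 20.3 in Control24h, 7.88 in Noise and 3.79 in Baseline. The other probe gave 5.29 units in Dex12h, 4.96 in Control12h, 8.09 in Dex24h, 7.04 in Control24h, 7.03 in Noise and 8.79 in Baseline. The 2 probes did not share an order of the arrays, and at this signal no difference of Slc26a5 between groups was detectable.

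Ocm was among the well-measured genes. Its brighter probe gave 4547 units in Dex12h, 5229 in Control12h, 5016 in Dex24h, 7603 in Control24h, 6840 in Noise and 4553 in Baseline. Control24h and Noise stood above the other 4 arrays, although no 2 neighbours in the order of the arrays were apart beyond spot error. Ocm signal was 1.67-fold (1.27 to 2.20) higher in Control24h than in Baseline and 1.5-fold (1.14 to 1.98) higher in Noise than in Baseline. In Dex24h it was 1.52-fold (1.15 to 2.00) lower than in Control24h. The probe at transcript base 258 gave 867 units in Dex12h, 985 in Control12h, 925 in Dex24h, 1374 in Control24h, 1299 in Noise and 932 in Baseline. The order of the high and low arrays was alike in both probes, with a Pearson r of 0.985 over the 6 arrays, given as a description. Ocm is also known from vestibular hair cells, and the 3 vestibular markers, above background on all arrays, summed to 836 units in Dex12h, 798 in Control12h, 1715 in Dex24h, 1317 in Control24h, 1321 in Noise and 1017 in Baseline. Their median log2 difference was 0.58 in Noise, 0.50 in Control12h and 0.69 in Control24h against Baseline. Against saline it was 0.13 in Dex12h and -0.51 in Dex24h, where 1 of the 3 was higher and 2 were lower beyond spot error. Their part in the Ocm result was not tested.

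Chrna10, a subunit of the efferent receptor, gave 672 units in Dex12h, 616 in Control12h, 883 in Dex24h, 1212 in Control24h, 1025 in Noise and 658 in Baseline. Control24h and Noise were again the highest arrays, and both 12 h arrays lay near Baseline, with no 2 neighbours in that order apart beyond spot error. Its signal was 1.84-fold (1.40 to 2.43) higher in Control24h than in Baseline, 1.56-fold (1.18 to 2.06) higher in Noise than in Baseline, and 1.37-fold (1.04 to 1.81) lower in Dex24h than in Control24h. At 12 h the saline array was 1.07-fold (0.809 to 1.41) lower than Baseline, and Dex12h was 1.09-fold (0.826 to 1.44) higher than Control12h, both within spot error.

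Chrna9, the partner subunit, depended on the probe. The brighter probe, to a predicted variant RNA, gave 342 units in Dex12h, 623 in Control12h, 154 in Dex24h, 197 in Control24h, 185 in Noise and 136 in Baseline. Control12h stood above Dex12h and Dex12h above Control24h beyond spot error, and the other 4 arrays lay together. With this probe Control12h was 4.57-fold (3.44 to 6.07) higher than Baseline and Dex12h was 1.82-fold (1.38 to 2.41) lower than Control12h. The probe to the RefSeq mRNA gave 114 units in Dex12h, 103 in Control12h, 82.2 in Dex24h, 109 in Control24h, 104 in Noise and 64.2 in Baseline. Here Baseline was the lowest array and the 12 h arrays did not stand out. The folds against Baseline that follow all share that Baseline array. The mRNA probe was 1.61-fold (1.18 to 2.19) higher in Control12h than in Baseline, 1.69-fold (1.23 to 2.32) higher in Control24h than in Baseline and 1.61-fold (1.19 to 2.20) higher in Noise than in Baseline. Between Dex12h and Control12h it differed by 1.1-fold (0.820 to 1.49), within spot error. Skeletal muscle genes moved with the variant probe: all 8 markers were above background on every array, and their summed scaled signal was 235552 units in Dex12h, 333788 in Control12h, 123712 in Dex24h, 197070 in Control24h, 169775 in Noise and 91657 in Baseline. Their part in the result was not tested.

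**Figure D2:**
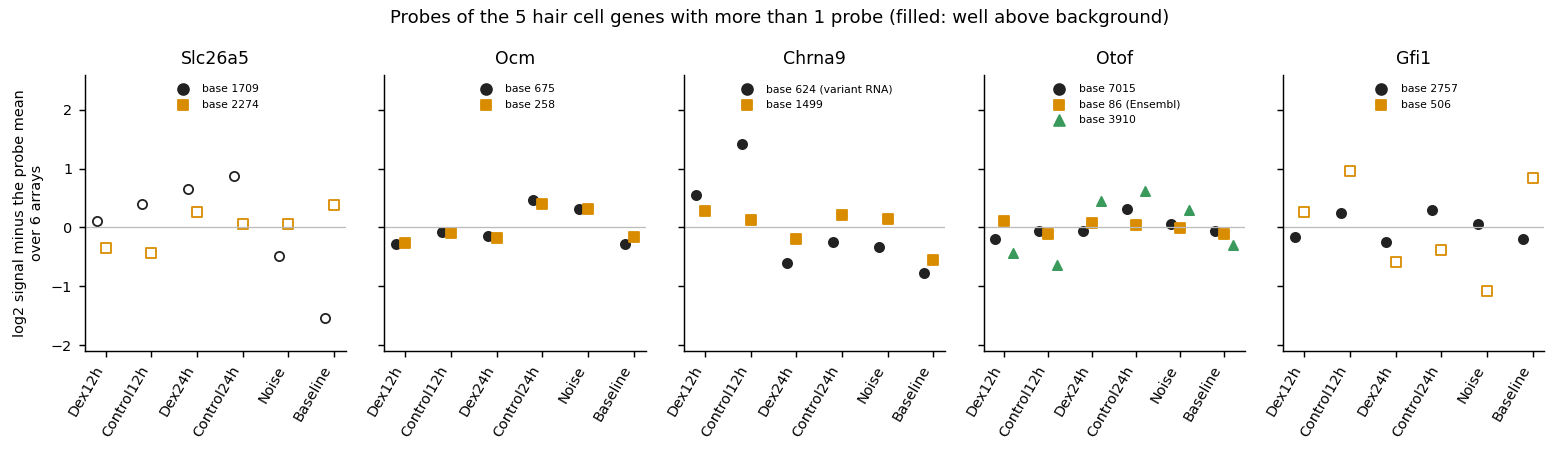
Log2 signal of each probe of the 5 genes with more than 1 probe, minus the mean of that probe over the 6 arrays, by array; the legend gives the probe's position on its transcript, and filled symbols are well above background. The 2 Ocm probes coincide, the Chrna9 variant probe stands apart in the 12 h arrays, and no Slc26a5 symbol is filled.

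Otof differed little between arrays by its brightest probe, which gave 2316 units in Dex12h, 2553 in Control12h, 2530 in Dex24h, 3308 in Control24h, 2757 in Noise and 2536 in Baseline. Control24h was the highest array, 1.30-fold (0.988 to 1.72) above Baseline, and Dex24h was 1.31-fold (0.991 to 1.72) lower than Control24h, both within spot error. The probe at transcript base 3910 gave 175 units in Dex12h, 153 in Control12h, 326 in Dex24h, 367 in Control24h, 294 in Noise and 193 in Baseline. By that probe the 12 h arrays were the lowest, Control24h was 1.90-fold (1.43 to 2.52) higher than Baseline, and Noise was 1.52-fold (1.15 to 2.02) higher than Baseline. Dex24h was 1.69-fold (1.27 to 2.23) higher than Baseline by that probe, while its 1.13-fold (0.851 to 1.49) lower signal in Dex24h than in Control24h was within spot error. A probe to an Ensembl transcript lay between 102 units in Dex12h and 86.6 units in Control12h over the 6 arrays, and these arrays did not differ beyond spot error.

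Slc17a8 ran opposite to Ocm in several comparisons. Its probe gave 230.4 units in Dex12h, 153 in Control12h, 354 in Dex24h, 252 in Control24h, 216 in Noise and 338.5 in Baseline. Dex24h and Baseline were the highest arrays and did not differ beyond spot error, and Control12h was the lowest, below its neighbour Noise beyond spot error. The signal was 2.21-fold (1.67 to 2.92) lower in Control12h, 1.34-fold (1.01 to 1.78) lower in Control24h and 1.57-fold (1.18 to 2.07) lower in Noise than in Baseline. It was 1.5-fold (1.13 to 1.99) higher in Dex12h than in Control12h and 1.40-fold (1.06 to 1.86) higher in Dex24h than in Control24h. Genes of sensory ganglia, the nociceptor and somatosensory neurons of cranial and spinal nerves, varied in the same order of arrays at the high and low ends. Of the 11 markers, 10 were above background on all arrays and none was at background on all, and their summed scaled signal was 18092 units in Dex12h, 6630 in Control12h, 33810 in Dex24h, 9173 in Control24h, 19541 in Noise and 24843 in Baseline. The 5 markers listed for spiral ganglion neurons, the cells that inner hair cells contact, were Tubb3, Nefl, Nefm, Nefh and Gata3. They were above background on all arrays. Their scaled signal summed to 89421 units in Dex12h, 73814 in Control12h, 162618 in Dex24h, 124230.4 in Control24h, 107012 in Noise and 135766 in Baseline. This sum does not tell spiral ganglion neurons from other neurons. The part of either list in the Slc17a8 result was not tested.

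Among the transcription factors, Pou4f3 gave 42.3 units in Dex12h, 33.3 in Control12h, 100.4 in Dex24h, 89.7 in Control24h, 91.6 in Noise and 76.0 in Baseline. Both 12 h arrays, on their own slide, lay below the other 4, and Dex12h and Baseline were the one pair of neighbours in that order apart beyond spot error. Control12h was 2.28-fold (1.58 to 3.30) lower than Baseline, while Control24h was 1.18-fold (0.857 to 1.62) higher, within spot error. Dex12h was 1.27-fold (0.840 to 1.92) and Dex24h 1.12-fold (0.812 to 1.54) higher than the saline array of the same time, both within spot error.

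Gfi1, by its probe nearer the 3′ end, gave 1453 units in Dex12h, 1935 in Control12h, 1366 in Dex24h, 1992 in Control24h, 1701 in Noise and 1412 in Baseline. The saline arrays were the highest and both dexamethasone arrays lay near Baseline. Gfi1 signal was 1.33-fold (1.01 to 1.76) lower in Dex12h than in Control12h and 1.46-fold (1.1 to 1.92) lower in Dex24h than in Control24h. It was 1.37-fold (1.04 to 1.81) higher in Control12h and 1.41-fold (1.07 to 1.86) higher in Control24h than in Baseline, although the log2 difference turned to -0.36 in Control12h with spike-in scaling and to -0.37 in Control24h as the mean over both probes. With spike-in scaling the log2 difference of Gfi1 in Dex12h against Control12h was -0.13, within the main spot error. The probe at transcript base 506 was not well above background on any array. Gfi1 also acts in granulocyte precursors, and the 11 markers of those cells, all above background on every array, summed to 641313 units in Dex12h, 830116 in Control12h, 318833 in Dex24h, 414319 in Control24h, 302722 in Noise and 567081 in Baseline. Their part in the Gfi1 result was not tested.

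Atoh1 was near the limit of detection, with 29.9 units in Dex12h, 17.1 in Control12h, 18.8 in Dex24h, 24.4 in Control24h, 25.3 in Noise and 12.0 in Baseline. It was well above background in Dex12h and Noise only. Its signal in Dex12h was 1.75-fold higher than its own signal in Control12h, which was not well above background, so this is no lower bound. Against the detection limit, it was at least 1.65-fold higher in Noise than in Baseline. These values, 0.80 and 0.73 on the log2 scale, leave out spot error. The 1.96 spot errors between neighbouring Atoh1 levels spanned 0.68 to 1.1 log2 units, so no difference of Atoh1 beyond spot error is given. Atoh1 and Pou4f3 are also known from Merkel cells of the skin, and the epidermis and Merkel cell list, with 7 of 8 markers above background on all arrays, summed to 53564 units in Dex12h, 58247 in Control12h, 16389.6 in Dex24h, 16650 in Control24h, 12826 in Noise and 18897 in Baseline. The 10 cerebellar genes described below had their highest sums in Noise (68494 units) and Dex12h (54385), where Atoh1 was detected. Control12h, where Atoh1 was not detected, had 50682. The part of either list in these values was not tested.

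**Figure D3:**
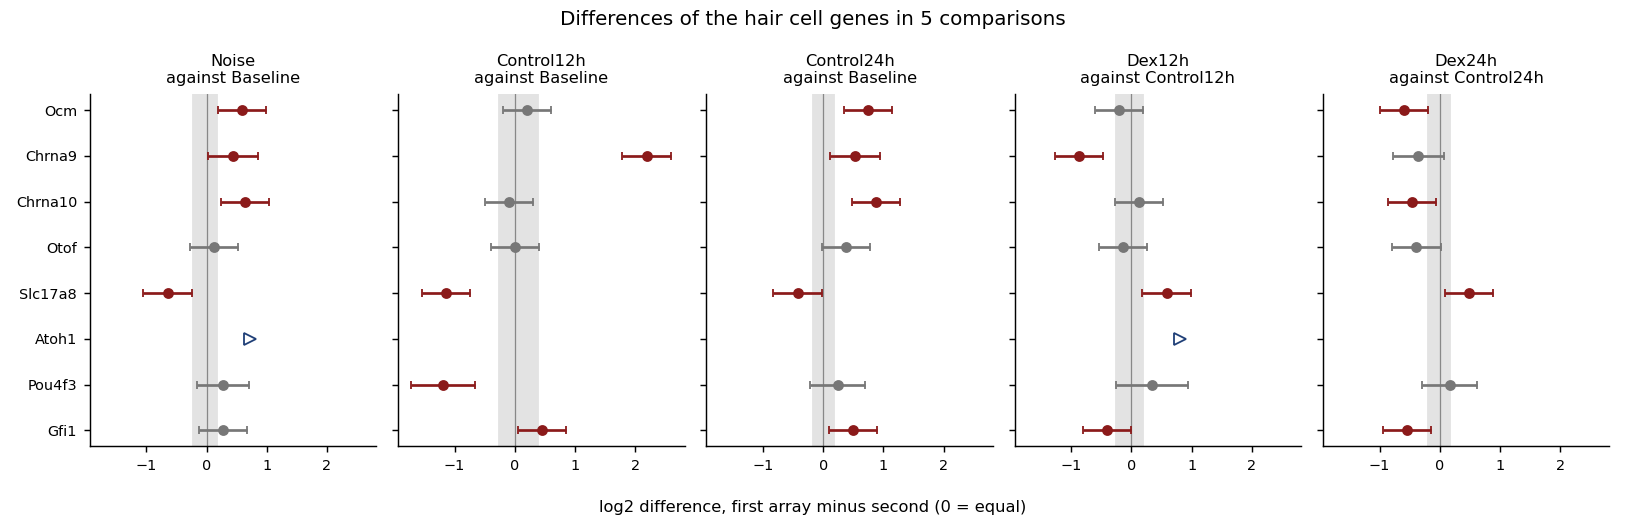
Log2 difference of the 7 measured genes in the 5 comparisons, first array minus second, with bars of 1.96 spot errors. Open triangles are Atoh1 where it was detected on 1 of the arrays, without spot error. The triangle is set against the detection limit in Noise against Baseline and against the undetected signal itself in Dex12h against Control12h. Red points differ beyond spot error, and the grey band runs between the quartiles of all measured genes. Ocm and Chrna10 lie above 0 in Noise and Control24h against Baseline and below 0 in Dex24h against Control24h, and Slc17a8 does the reverse.

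Set together, 7 of the 9 genes were measured on all 6 arrays and could be followed in each comparison. After noise without injection, 3 of the 7 were higher beyond spot error, the outer hair cell genes Ocm, Chrna9 and Chrna10, and 1 was lower, Slc17a8; over all measured genes the shares were 9.64% higher and 12.3% lower. The median difference of the 7 genes was 0.27 on the log2 scale in Noise against Baseline, beside a median of -0.01 over 24160 measured genes. None was 2-fold apart, beside 5.82% of all measured genes. Chrna9 was at 0.34 with spike-in scaling and 0.30 with normexp background correction, both within the spot error of the main scaling. Ocm (0.48) and Chrna10 (0.54) stayed beyond it with spike-in scaling. At 24 h after noise with saline, 4 of the 7 were higher, Ocm, Chrna9, Chrna10 and Gfi1, and 1 was lower, Slc17a8, beside 8.38% higher and 8.8% lower over all. The median was 0.50, beside 0.01 over 22965 genes, and none of the 7 was 2-fold apart (3.44% of all genes). With spike-in scaling that median was 0.20, and Chrna9 (0.23) and Gfi1 (0.20) fell within the spot error of the main scaling. Ocm (0.44), Chrna10 (0.58) and Slc17a8 (-0.72) stayed beyond it. With normexp background correction Chrna9 (0.36) and Slc17a8 (-0.38) fell within it, and Ocm, Chrna10 and Gfi1 did not.

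At 12 h after noise with saline the picture was mixed. By the main scaling Chrna9 and Gfi1 were higher beyond spot error and Slc17a8 and Pou4f3 were lower, beside 22.3% higher and 17% lower over all measured genes, a comparison across slides. A single gene, Chrna9 by its variant probe, was at least 2-fold higher and 2 genes, Slc17a8 and Pou4f3, were at least 2-fold lower, beside 4.41% and 3.42% of all genes. The median was 0.01, beside 0.06 over 24284 genes. With spike-in scaling the median of all genes in this comparison moved to -0.76 and the differences of Gfi1, Ocm and Otof turned negative, to -0.36, -0.62 and -0.81, so that these 3 genes have no settled direction against Baseline at 12 h. Chrna10 moved to -0.91, Slc17a8 to -1.96, Pou4f3 to -2.01 and Chrna9 to 1.38 under that scaling. With normexp background correction Slc17a8 (-0.92) and Pou4f3 (-0.62) were no longer 2-fold apart, and Chrna9 was at 1.74.

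Dexamethasone against saline at 24 h gave lower signals beyond spot error for 3 of the 7 genes, Ocm, Chrna10 and Gfi1, and a higher one for Slc17a8, beside 9.53% lower and 8.67% higher over all measured genes. The median was -0.39 on the log2 scale, beside a median of -0.005 over 22709 genes, and none was 2-fold apart (3.16% of all genes). At 12 h, by the main scaling, Chrna9 by its variant probe and Gfi1 were lower and Slc17a8 was higher, beside 13.2% lower and 9.56% higher over all. The Gfi1 difference of -0.41 was -0.38 with quantile normalization, -0.37 with normexp and -0.13 with spike-in scaling, each within the main spot error. Chrna9 was at 0.14 by its mRNA probe. Slc17a8 ran from 0.43 with normexp to 0.87 with spike-in scaling and stayed beyond spot error. The median was -0.14, beside -0.02 over 24178 genes, and none was 2-fold apart (3.54% of all genes). The sign of this median was not settled. It was 0.15 with spike-in scaling, 0.095 with the mean over probes and 0.12 with Chrna9 by its mRNA probe. Quantile normalization and normexp each gave -0.10. Dexamethasone arrays also differed from saline arrays in the sensory ganglion list, with median log2 differences of 1.46 at 12 h and 2.20 at 24 h, and in the skeletal muscle list, with medians of -0.67 and -0.65. Other lists differed at 1 time by more than 0.8: the B cell precursor list had a median of -1.33 and the granulocyte list one of -0.88 at 12 h, and the cerebellar list had -1.26 and the epidermis and Merkel cell list -0.87 at 24 h. The part of these lists in the dexamethasone values was not tested. Control24h enters both the comparison with Baseline and that with Dex24h. The opposite signs of Ocm, Chrna10, Gfi1 and Slc17a8 there thus rest in part on 1 shared array. Control12h is shared in the same way at 12 h. There Chrna9 by its variant probe, Gfi1 and Slc17a8 had opposite signs beyond spot error by the main scaling. In Dex24h against Baseline, by the brightest probes, Chrna10 was the 1 gene of the 7 beyond spot error, at a log2 difference of 0.42, beside 16.7% of all genes; by the probe at base 3910 Otof was too, as given above.

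The 4 arrays of Dex12h, Control12h, Dex24h and Control24h allowed 1 test, dexamethasone over both times in limma with time as a term. It called 0 of 24766 genes at an adjusted p under 0.05 (0%), and 3635 genes (14.7%) had an unadjusted p under 0.05. Of the 7 hair cell genes tested, 0 were called and 4 had an unadjusted p under 0.05. Gfi1 had a log2 difference of -0.48 (SE 0.12, adjusted p = 0.223), lower in Dex12h and Dex24h than in the saline array of the same time. Slc17a8 had a log2 difference of 0.54 (SE 0.15, adjusted p = 0.245), higher at both times. For Chrna9 by its variant probe it was -0.61 (SE 0.18, adjusted p = 0.268) and for Ocm -0.40 (SE 0.14, adjusted p = 0.315), both lower at both times; by its mRNA probe Chrna9 was at -0.13. Otof, Chrna10 and Pou4f3 had adjusted p-values of 0.424, 0.732 and 0.678. Over the alternatives run, the adjusted p of Gfi1 lay between 0.0767 and 1, that of Slc17a8 between 0.228 and 1, that of Chrna9 between 0.171 and 1 and that of Ocm between 0.173 and 1. Several of these sizes changed when the fit was repeated on 3 of the 4 arrays, without the term for time. The times are then unequal between the arms, so the gap between times, which is also slide, enters the dexamethasone difference. That gap and the part of the single array left out cannot be told apart. Chrna9 ran between -1.44 without Control24h and 0.22 without Control12h, and was -0.035 without Dex24h. Slc17a8 ran between 0.18 without Control12h and 0.90 without Control24h, with 0.23 without Dex24h and 0.85 without Dex12h. Ocm ran between -0.67 without Control12h and -0.13 without Control24h, and Gfi1 between -0.52 and -0.43.

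Other genes of the hair cell were described by lists. Of 26 hair bundle and mechanotransduction genes, 23 were well above background on all arrays. Their median log2 difference was 0.28 in Noise against Baseline, 0.58 in Control24h against Baseline and -0.12 in Control12h against Baseline. In Control24h 12 of 23 were higher beyond spot error and 1 was lower, beside 8.38% higher and 8.8% lower over all measured genes. The scaffold harmonin (Ush1c) gave 3177 units in Control24h and 1400 in Baseline, a 2.27-fold difference, and the stereocilia motor Myo15 was 2.04-fold higher. Loxhd1, needed for mechanotransduction in mature hair cells, was 2.01-fold higher, and Ptprq, of the stereocilia shaft connectors, was 1.98-fold higher. In Dex24h against Control24h the list's median was -0.10, with 1 gene higher and 4 lower beyond spot error, beside 8.67% and 9.53% over all. Among these were Fscn2, an actin crosslinker, which was 1.62-fold lower, and Whrn, a scaffold at the stereocilia tip, which was 1.58-fold higher.

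The 8 ribbon synapse and exocytosis genes had a median log2 difference of 1.01 in Noise against Baseline, with 4 at least 2-fold higher and none lower, beside 5.82% of all measured genes 2-fold apart in either direction. Rims2, a scaffold of the release site, gave 385 units in Noise and 149 in Baseline, Pclo 1347 and 562, Bsn 1377 and 588, and the calcium channel subunit Cacna1d 372 and 171. These genes are also expressed in brain, and 10 cerebellar genes summed to 54385 units in Dex12h, 50682 in Control12h, 8713 in Dex24h, 15531 in Control24h, 68494 in Noise and 11562 in Baseline, with a median log2 difference of 3.05 between Noise and Baseline. Of the 10, 9 were above background on all arrays and their part in the synapse values was not tested. In Control24h against Baseline the synapse median was 0.05, and Cabp2, a calcium sensor of inner hair cell calcium channels, was the gene with the largest difference of the list at 2.03-fold higher. The 7 membrane and efferent response genes, which hold the calcium-activated potassium channel Kcnn2 of the efferent response, had medians of -0.13, -0.64 and -0.02 in Noise, Control12h and Control24h against Baseline, and in Control12h 1 was higher and 5 were lower beyond spot error, beside 22.3% and 17% over all. The 10 other hair cell transcription and splicing factors had medians of 0.18, 0.05 and 0.28 in those comparisons, and in Control24h 4 of 9 were higher beyond spot error and 0 lower, beside 8.38% and 8.8% over all, with the transcription factor Lhx3 1.67-fold higher.

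The 15 supporting cell and Notch pathway genes include the regulators that hold back the hair cell fate. Hes5, a Notch effector, gave 435 units in Dex24h and 154 in Control24h, a 2.82-fold difference. Against Baseline, with 271 units, Hes5 was 1.76-fold lower in Control24h. Notch1 was 4.09-fold lower in Control12h than in Baseline, a comparison across slides. There the log2 differences of the list ran from -2.03 to 1.52, with 1 gene at least 2-fold higher and 2 lower, beside 4.41% and 3.42% over all. In Noise against Baseline they ran from -0.51 to 1.77 with a median of 0.02. Beyond spot error 2 were higher and 3 lower there, beside 9.64% and 12.3% over all. The list's median was 0.14 in Dex24h against Control24h, with 1 gene higher and 1 lower beyond spot error, beside 8.67% and 9.53% over all. It was -0.38 in Control12h against Baseline, with 2 higher and 7 lower, beside 22.3% and 17% over all.

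**Figure D4:**
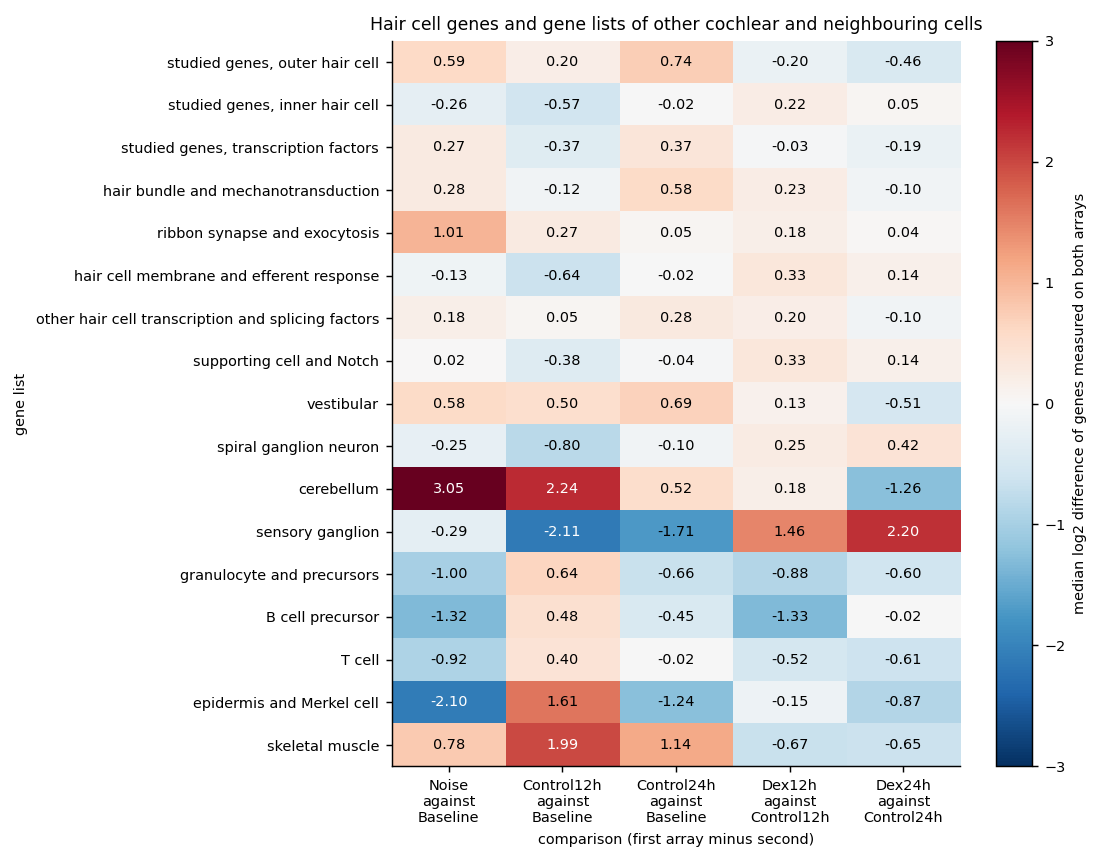
Median log2 difference (number and colour) of each gene list in the 5 comparisons, first array minus second, over genes measured on both arrays. Outer hair cell genes (3 of 4 measured) and hair bundle genes are positive in Noise and Control24h against Baseline. Other lists are positive there too, among them vestibular, cerebellum and skeletal muscle. Lists of cerebellum, sensory ganglion, epidermis and muscle span wider ranges.

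The genes whose pattern over the 6 arrays was most like each measured hair cell gene were ranked by Pearson r among 1448 genes, those with a gene symbol and a mean signal at or above the median of all genes measured on all 6 arrays, and with a range over the arrays of at least 1 log2 unit. The brightest probes of Ocm, Otof and Gfi1 themselves ranged over less than that. All 6 arrays enter each r, which is therefore given as a description: the arrays share their slides and tissue make-up. Ocm was closest to Fzd9 (0.98), a Wnt receptor, and also ran close to Tor3a (0.96). Chrna10 was closest to Otog (0.996), the tectorial membrane protein otogelin, then to Frzb and Per1. Chrna9 by its variant probe was closest to Pvalb (0.99), parvalbumin, and to Ckm (0.99), muscle creatine kinase, and Slc17a8 to Rcan2, Lgi2 and the neurofilament gene Nefm (0.97). Gfi1 was closest to Rsad2 (0.97), Isg15 and Oas1f, all induced by interferon, and Pou4f3 to Nfasc, a protein of axon nodes. Otof was closest to Fzd9 (0.95), then to Gper1 and Meltf. Among the hair cell genes themselves, Ocm had an r of 0.91 with Otof, 0.88 with Chrna10 and -0.23 with Slc17a8.

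**Figure D5:**
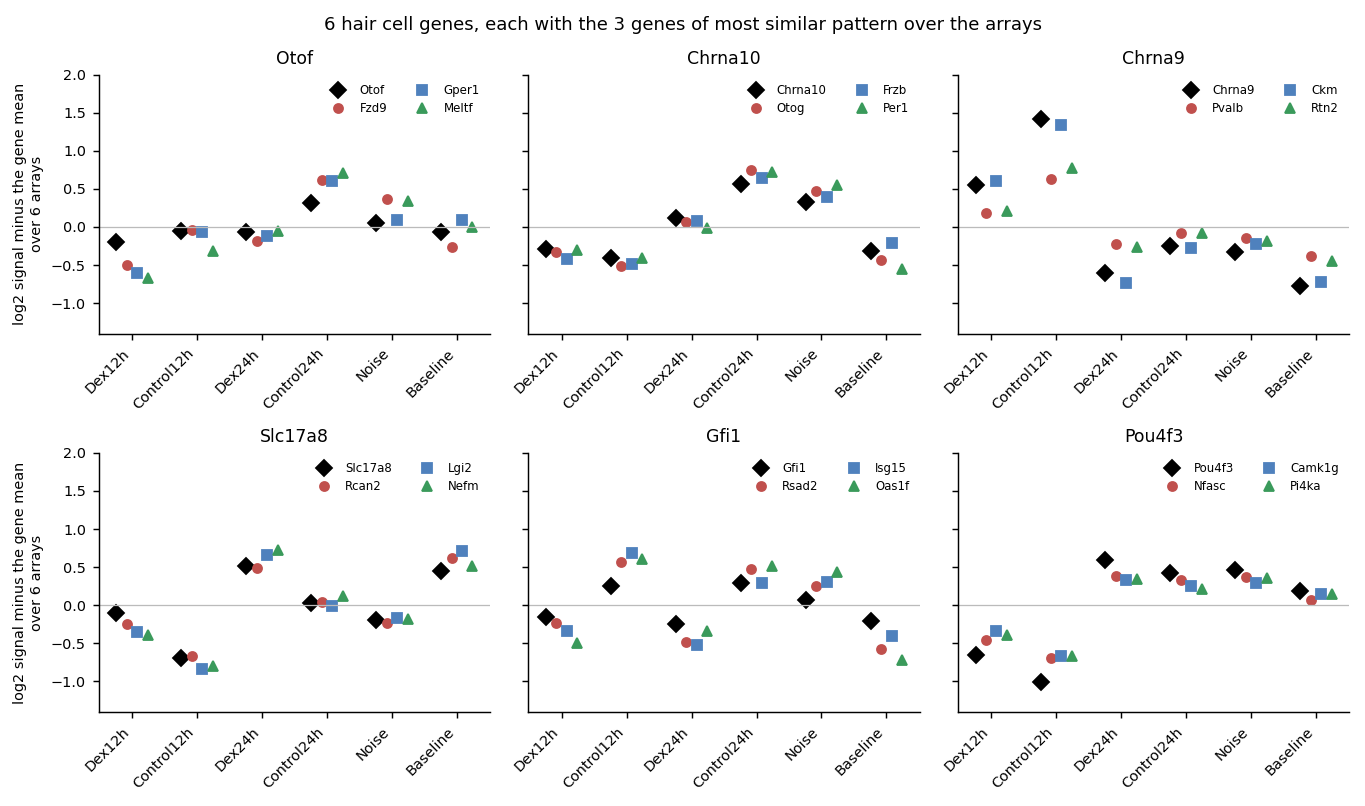
Log2 signal over the 6 arrays for 6 of the 7 measured hair cell genes and the 3 genes with the highest Pearson r to it, each centred on its own mean. The genes of a panel were chosen by r, which lay between 0.927 for Oas1f with Gfi1 and 0.996 for Otog with Chrna10. Their highest and lowest arrays are not always the same: Gfi1 is highest in Control24h, and Rsad2, Isg15 and Oas1f in Control12h.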

How the data were processed

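Total RNA of mouse cochlea, 1 array per group, was labelled with Cy3 and hybridised to Agilent 60-base probe arrays, per the labels. Feature Extraction (version 10.10.1.1, per the submitters' processing notes) gave the deposited intensity values, which are background-subtracted on a linear scale, with probe positions on mm9 per the file headers. The deposited series matrix holds log2 values; subtracting 1 constant per array from the log2 processed signal gave its values for 100% of probes, within 0.001, and the column medians were -2.81 in Dex12h, -2.849 in Control12h, -2.898 in Dex24h, -2.927 in Control24h, -2.978 in Noise and -2.952 in Baseline, so scale, centring and direction are known from the values.

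Of the 56589 probes kept, 32978 took their name from a RefSeq table (GRCm38.p6) by accession, and no coordinates were taken from it. Log2 processed signals were centred on each array's 75th percentile (537 to 679 units), spots of a probe were averaged, and a gene was represented by its brightest probe over the 6 arrays. Each array had 59305 non-control spots and none was saturated; precision is limited by the number of arrays. A gene above background on 1 array only got a fold set against the lowest signal above background on the other array, or its own signal there if higher. In the latter case the fold is no lower bound. With limma 3.58.1 in R 4.3.3 (lmFit, eBayes with trend), dexamethasone was tested over both times on 4 arrays, for genes above background on at least 2, with Benjamini-Hochberg adjustment. A run on simulated data drew its noise from the variances of the same fit, so it could check the code but not the assumptions. Beyond the variance shared over genes, the error of a gene in the limma fit comes from the change in its dexamethasone difference between the times. Time and slide coincide in that fit.

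Named were all 9 genes with every probe, up to 4 genes of each hair cell list by size of difference, defining genes of other tissues, and the 3 genes most like each gene in pattern; a few genes that this rule names were left out of the text. Alternatives were quantile normalization, normexp (offset 50), another percentile, spike-in scaling, the series matrix, the mean over probes, other filters and folds, no trend, no time term and each array left out. The genes, lists, tests and alternatives were chosen with earlier results of these data known. Analyses used Python 3.11.15, pandas 2.3.3, numpy 2.4.6, matplotlib 3.10.9 and data.table (1.17.8).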

Additional observations from a re-analysis of the deposited data

Results flagged for a closer look

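Chrna10 and Pou4f3 had log2 differences of opposite sign at 12 h and 24 h. For Chrna10, in dexamethasone against saline, the difference was 0.12 at 12 h and -0.46 at 24 h, and in saline after noise against Baseline it was -0.095 at 12 h and 0.88 at 24 h. Pou4f3 in saline after noise against Baseline was -1.19 at 12 h and 0.24 at 24 h. Both 12 h values of Chrna10 and the 24 h value of Pou4f3 lay within spot error, so they have no direction of their own. With 1 array per group the difference between the times was not tested, and the 12 h arrays were on another slide than the rest.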

How the results depend on the processing

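No paired analysis was possible because each group has 1 array, beyond the time term of the limma fit, which sets each dexamethasone array against the saline array of its time; without that term it called 0 genes. Of 128 counts, medians and calls recomputed under the alternatives, 116 stayed the same and 12 moved. At 1.5-fold in place of 2-fold, 3 genes were apart in Noise against Baseline, 2 in Control24h against Baseline, 2 in Dex12h against Control12h and 1 in Dex24h against Control24h. With no filter on dim probes 2 were apart in Noise and 2 in Control24h, both against Baseline. In Control12h against Baseline 1 was apart at 3-fold and 1 with normexp. With spike-in scaling the median of the 7 genes there was -0.81, and the median of all genes moved to -0.12 in Noise, -0.76 in Control12h and -0.29 in Control24h against Baseline, 0.26 in Dex12h and -0.11 in Dex24h against saline. Measured genes at least 2-fold higher and lower then numbered 535 and 982 in Noise (637 and 768 before), 222 and 7454 in Control12h (1072 and 831), 229 and 862 in Control24h (396 and 394), 818 and 185 in Dex12h (403 and 454) and 302 and 489 in Dex24h (371 and 347). In Control12h against Baseline they numbered 875 and 1038 with quantile normalization and 1182 and 679 with the mean over probes. Limma called 548 genes with spike-in scaling and 950 with no filter; with an array left out, and the time term with it since 3 arrays leave no residual degrees of freedom for it, it called 0 to 21, the 21 without Dex12h. No hair cell gene was called in any of these. Of 413 values of single genes, 393 stayed the same, 12 moved and 8 reversed: Gfi1 in Control12h against Baseline (-0.36 with spike-in scaling), Gfi1 in Control24h against Baseline (-0.37 as the mean over its probes, 1 of which was not detected), Chrna9 in Dex12h against Control12h (0.14 by its mRNA probe, an alternative chosen after seeing the data), and 5 limma values for dexamethasone over both times with an array left out. In those Chrna10 ran from -0.65 to 0.32 (-0.17 with all 4 arrays; 0.031 without Dex12h), Chrna9 from -1.44 to 0.22 (-0.61) and Pou4f3 from -0.46 to 0.97 (0.25; -0.37 without Dex24h). The causes were not tested. Neither the 116 nor the 393 measures how firm the results are, since several settings could not change a value. The 42 values of single genes with no filter and the 35 for genes detected on all 6 arrays repeat the main ones. The 42 from the series matrix differ only by a constant per array. A limma value counted as the same if its sign held and it stayed uncalled, whatever its size. With an array left out, the gap between times, also slides, enters it too.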
